A study of Homo sapiens with 21 samples.

Results

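Gangliosides are sialic acid-bearing glycolipids of the outer cell membrane, and the disialoganglioside GD2 is the main antibody target in neuroblastoma. The transcripts of 9 genes that encode the enzymes of GD2 synthesis were followed here: UGCG, B4GALT5, B4GALT6, ST3GAL5, ST8SIA1, B4GALNT1, B3GALT4, ST3GAL2 and ST8SIA5. They were chosen by gene symbol, as the rows of the deposited table that carry these names, and all 9 were found among 60728 gene identifiers. SK-N-BE(2), an established MYCN-amplified human neuroblastoma cell line, received lentiviral particles with short hairpin RNAs (shRNAs) meant to lower ARID1A and ARID1B, the mutually exclusive subunits that define the BAF form of the SWI/SNF chromatin remodeller. RNA was taken after 72 h in 7 labelled conditions of 3 libraries each, 21 in all, described as biological triplicates. Control is a non-silencing shRNA. The label shARID1A covers the conditions shARID1A.2 and shARID1A.4, the label shARID1B covers shARID1B.2 with shARID1B.3, and a last label, shARID1A/B, covers shARID1A/B.2.3 together with shARID1A/B.4.2. Every condition, the control included, was transduced, and all came from this 1 line.

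The pathway starts from ceramide. UGCG adds glucose to give glucosylceramide, and B4GALT5 or B4GALT6 adds galactose to give lactosylceramide. ST3GAL5, GM3 synthase, adds the first sialic acid. ST8SIA1, GD3 synthase, adds the next and so opens the b-series, and B4GALNT1, GM2/GD2 synthase, then turns GD3 into GD2. B3GALT4 extends GD2 to GD1b, ST3GAL2 adds a further sialic acid to give GT1b, and ST8SIA5 makes the more highly sialylated forms, so that these last 3 enzymes act after GD2. Transcripts were measured, and neither GD2 nor enzyme activity was.

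The silenced genes did not follow all labels, so each condition is named here by its label and described by the transcript that was low in it. Values are reads on a gene divided by 1 size factor per library. ARID1A was 6097, 6374 and 6463 in the control libraries and ARID1B was 5793, 5804 and 5791. Both were low in the libraries labelled shARID1A.2, with ARID1A at 2169, 2159.9 and 2109 and ARID1B at 2252, 2248 and 2224. The libraries labelled shARID1A.4 also had both low, at 2289, 2157 and 2284 for ARID1A and 3065, 3109.7 and 3126 for ARID1B. ARID1A, and not ARID1B, was the low gene in the libraries labelled shARID1B: it was 1962, 1882 and 1916 under shARID1B.2 and 2507, 2479.9 and 2449.7 under shARID1B.3, while ARID1B stood at 5056, 4913 and 5043 and at 6182, 6038 and 6053. In the libraries labelled shARID1A/B, ARID1B was the low gene, at 2540.5, 2651 and 2607 under shARID1A/B.2.3 and 1886, 1881 and 1955 under shARID1A/B.4.2, and ARID1A kept 89.7% and 86.2% of the control mean. Any direction given below for a labelled condition is therefore a direction of the libraries so labelled.

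**Figure D1:**
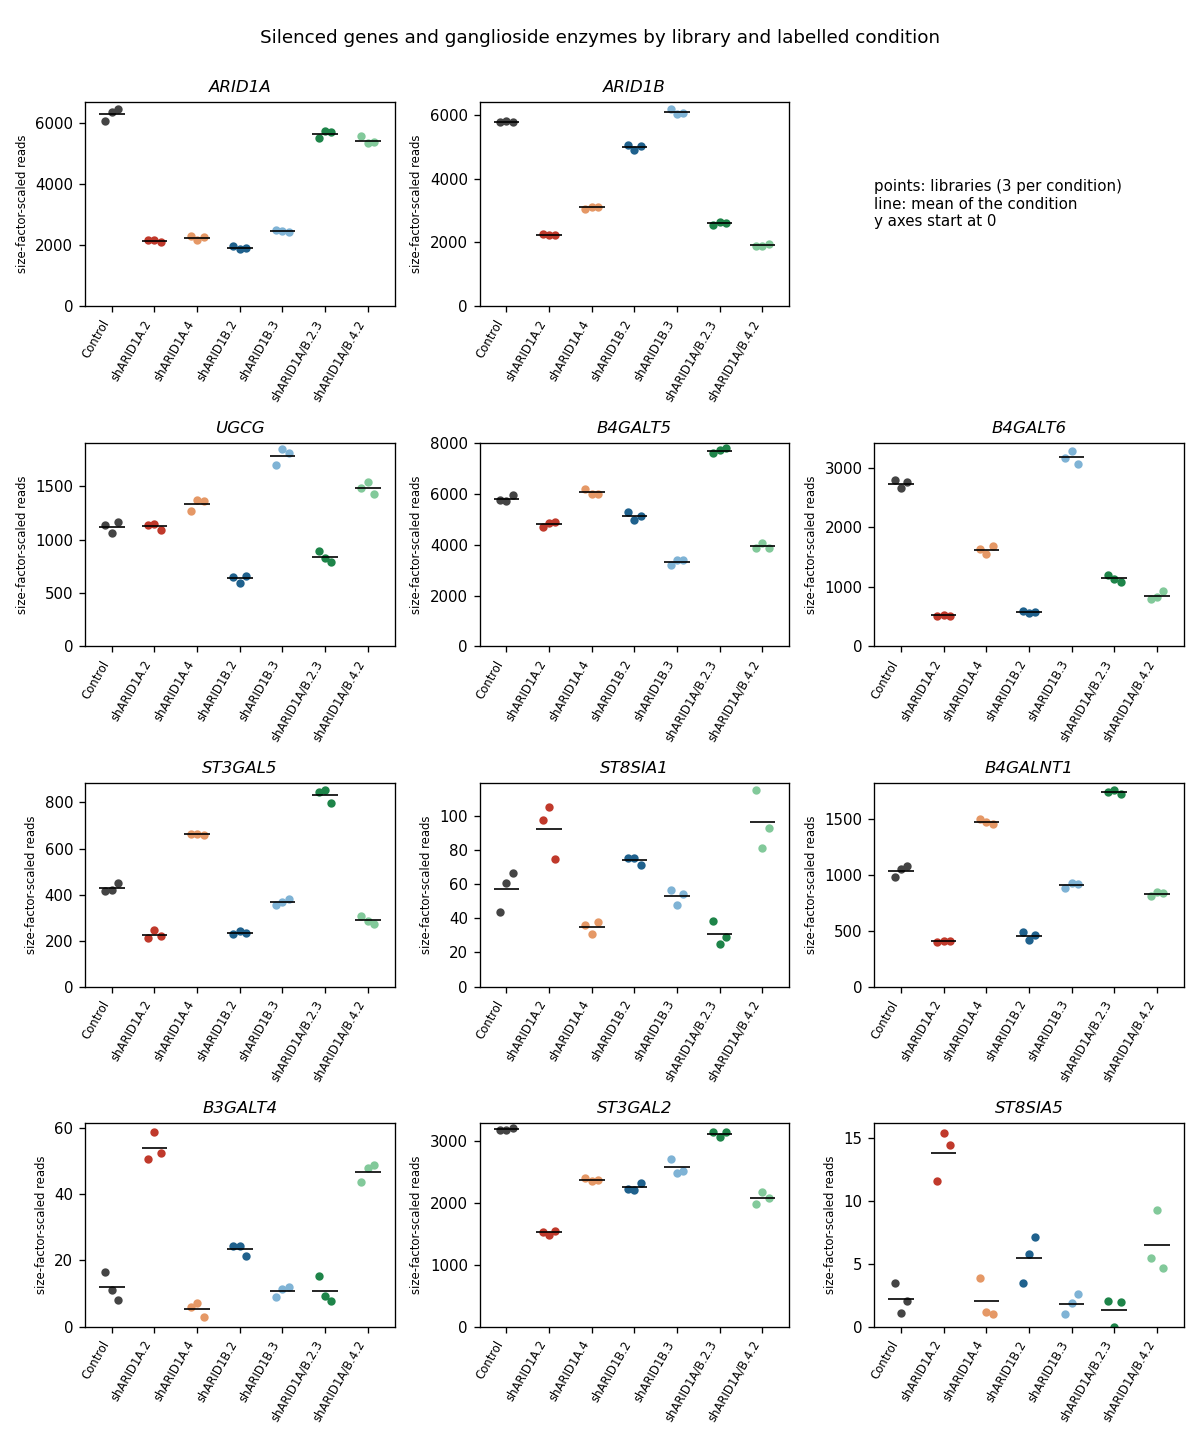
Size-factor-scaled reads (y axes, linear from 0) of ARID1A, ARID1B and the 9 enzyme genes in each of 21 libraries, by labelled condition (x axis), with points for libraries and a line for the mean of 3. ARID1A is low in the libraries labelled shARID1A and shARID1B and near control in those labelled shARID1A/B, and among the enzymes B4GALT6 spans 519.8 to 3179 between its lowest and highest condition.

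On GRCh38 with GENCODE release 29, UGCG lies on chromosome 9 (111896766 to 111935369, plus strand), B4GALT5 on chromosome 20 (49632945 to 49713878, minus strand) and B4GALT6 on chromosome 18 (31622247 to 31685836, minus strand). ST3GAL5 lies on chromosome 2 (85837120 to 85905199, minus strand), ST8SIA1 on chromosome 12 (22063773 to 22437041, minus strand) and B4GALNT1 also on chromosome 12 (57623410 to 57633355, minus strand). B3GALT4 is on chromosome 6 (33277132 to 33284832, plus strand), ST3GAL2 on chromosome 16 (70375978 to 70439237, minus strand) and ST8SIA5 on chromosome 18 (46667821 to 46759257, minus strand). Counts are of whole genes, over all exons and UTRs of the annotation. B4GALNT1 shares 2136 exon bases with SLC26A10 on the opposite strand, and the strand setting of the counting is not given in the sources used here, so reads of the pair may not be separable. ST8SIA1 and B3GALT4 overlap CMAS and WDR46 on the opposite strand without a shared exon base.

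ST3GAL5 and ST8SIA1 encode consecutive sialyltransferases and were called in opposite directions in 4 of the 6 comparisons with control, so their upstream sequences are shown together. RefSeq's promoter table (GRCh38.p14) held 4 of the 9 genes, namely UGCG, B4GALT5, ST3GAL5 and ST8SIA1, and the other 5 (B4GALT6, B4GALNT1, B3GALT4, ST3GAL2 and ST8SIA5) were not matched. The 250 bases before the start are printed 5′ to 3′ on the gene's strand, for ST3GAL5 before the start farthest upstream of the 5 listed, chr2:85889035-85889284, and for ST8SIA1 at chr12:22334708-22334957. Capitals mark GGGCGG and CCAAT on either strand, the GC box and the CCAAT box.
ST3GAL5: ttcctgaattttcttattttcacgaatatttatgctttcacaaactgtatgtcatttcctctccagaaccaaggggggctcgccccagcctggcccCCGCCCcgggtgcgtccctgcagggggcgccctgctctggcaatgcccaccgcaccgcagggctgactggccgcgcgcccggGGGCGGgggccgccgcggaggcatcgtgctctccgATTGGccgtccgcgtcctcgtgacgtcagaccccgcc
ST8SIA1: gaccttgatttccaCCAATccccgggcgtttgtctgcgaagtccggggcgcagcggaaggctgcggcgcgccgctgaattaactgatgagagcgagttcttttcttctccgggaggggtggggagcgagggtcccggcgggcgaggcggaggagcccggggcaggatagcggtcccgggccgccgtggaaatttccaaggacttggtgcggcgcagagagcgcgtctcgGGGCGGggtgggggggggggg
The window of ST3GAL5 held 2 GC boxes and 1 CCAAT box, and that of ST8SIA1 held 1 of each. GGGCGG was present in 42.6% and CCAAT in 32.0% of 35116 such windows, so both motifs are common. The E-box CACGTG, present in 6.34% of windows, was not in these letters, and neither were TATAAA (10.7%) and TGANTCA (6.57%). The starts are RefSeq's, and which start these cells used was not measured. GC content was 66% and 69.2%, against a median of 58% over all windows.

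Sequencing depth was similar throughout, with 27954334 to 41077638 reads per library and a median of 34973565. Each library was counted as a separate replicate because the libraries are described as biological triplicates. All 21 pairs of libraries within a condition differed by more than sampling noise, which does not by itself show that they came from separate cultures. The adrenergic markers of sympathetic neuroblastoma were present in control, with PHOX2A at 8960 and HAND2 at 19230 on the scaled read scale, whereas the Schwann cell regulator SOX10 was at 0 in every condition. Mesenchymal markers were mixed: VIM stood at 54220, FN1 at 5269 and TWIST1 at 3809 in control, while PRRX1 and TWIST2 were at 0. Because the cells were measured in bulk, fewer cells that express a gene and less RNA per cell cannot be told apart.

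Compared per length, control cells had abundant transcripts for the first steps and few for ST8SIA1. Levels on the RPKM scale (reads per kb of the longest coding transcript, scaled to the depth of the library) were 34.4 for B4GALT5, 19.6 for B4GALT6, 10.01 for ST3GAL2, 9.56 for B4GALNT1, 7.82 for UGCG and 2.70 for ST3GAL5. B3GALT4 stood at 0.197, ST8SIA1 at 0.164 and ST8SIA5 at 0.0045 on the same scale. The transcript of the step that opens the b-series was below those of the step before it and of the step after it, in control and in every other condition (0.0909 to 0.315 for ST8SIA1, against 1.601 to 5.37 for ST3GAL5 and 4.20 to 16.4 for B4GALNT1).

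Each labelled condition was compared with the same 3 control libraries, by limma on log2(value + 1) over 18584 genes with Benjamini-Hochberg adjustment, and a gene was called at an adjusted p-value below 0.05. Of 54 values of the 9 genes against control, 27 were lower, 16 were higher and 11 were not called. Calls were common among all genes, and the counts of the 9 genes are to be read against that background. B3GALT4 and ST8SIA5 passed the filter on low reads through the conditions in which they were high (at least 10 reads in every library in 3 conditions and in 1), so they had to differ somewhere and their calls do not support the counts.

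In the libraries labelled shARID1A.2, where both silenced genes were low, 5 of the 9 genes were lower and 3 higher, against 38.2% and 37.9% of all genes. With shARID1A.4 the counts were 4 lower and 3 higher (36.6% and 37% of all genes). For shARID1B.2, with ARID1A low, 6 were lower and 1 higher (34% and 31.6%), and for shARID1B.3, also with ARID1A low, 4 were lower and 2 higher (32% and 31.9%). The libraries labelled shARID1A/B.2.3, with ARID1B low, had 3 lower and 3 higher (34% and 35.2%), and those labelled shARID1A/B.4.2 had 5 lower and 4 higher (36.1% and 35.1%). Changes over 1 in size on the log2 scale among called genes numbered 5 for shARID1A.2 (24.8% of all genes), 1 for shARID1A.4 (21.4%), 2 for shARID1B.2 (12%), 0 for shARID1B.3 (11.8%), 1 for shARID1A/B.2.3 (16.1%) and 3 for shARID1A/B.4.2 (18.4%). The 1 for shARID1A.4 was B3GALT4, and both B3GALT4 and ST8SIA5 were among those for shARID1A.2 and shARID1A/B.4.2. Their changes do not support these counts either. The median log2 change of the 9 genes lay between -0.50 and -0.14 over the 6 comparisons, beside medians of 0.01 to 0.02 over all genes. Under shARID1B.2 the only higher gene was B3GALT4, and in the other 5 comparisons genes other than B3GALT4 and ST8SIA5 were called in both directions.

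**Figure D2:**
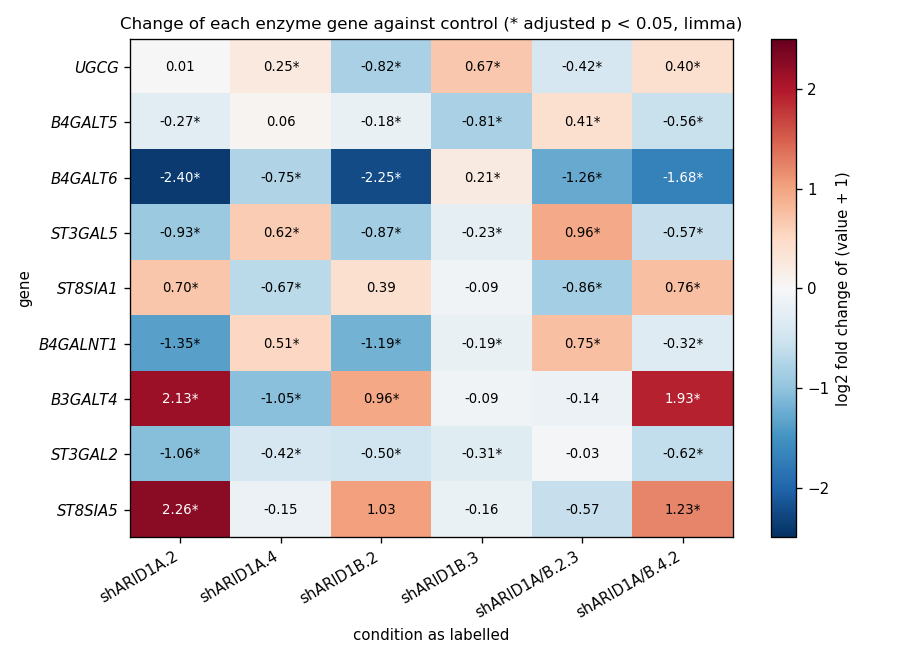
Log2 fold change of (value + 1) against control (colour and printed value) for each enzyme gene (rows, in pathway order) and labelled condition (columns), with an asterisk for an adjusted p-value below 0.05 in limma. B4GALT6 has the lowest value (-2.40 under shARID1A.2), and ST3GAL5 and B4GALNT1 share their sign in every column while ST8SIA1 has the other sign in all columns but shARID1B.3.

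UGCG, which commits ceramide to glycolipids, was 1142, 1063 and 1164 in control. It was lowest in the libraries labelled shARID1B.2, at 655, 594 and 662, a log2 change of -0.82 ± 0.05 (SE; limma adjusted p = 4.63e-13). It was highest in those labelled shARID1B.3, at 1697, 1849 and 1812, a change of 0.67 ± 0.05 (adjusted p = 2.43e-11). ARID1A was the low gene in both, yet their UGCG values do not overlap and lie on either side of the control. The libraries labelled shARID1A/B.2.3 were also below control, at 893, 830.5 and 790.05 (-0.42 ± 0.05), and those labelled shARID1A/B.4.2 above it, at 1483, 1541 and 1428 (0.40 ± 0.05). Under shARID1A.4 it was 1271, 1375 and 1366 (0.25 ± 0.05), and under shARID1A.2 it was 1135, 1147 and 1096, which overlapped the control (0.01 ± 0.05, adjusted p = 0.934). Scaling to total reads, which moved the median of all genes by 0.17 in that comparison, gave it a call (0.18, adjusted p = 0.00199).

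B4GALT6 had the widest range of the lactosylceramide synthases. It was 2792, 2660.5 and 2764 in control and 516, 536 and 508 under shARID1A.2, a fall to 19.0% of the control mean (log2 change -2.40 ± 0.05, limma adjusted p = 2.48e-23). The libraries labelled shARID1B.2 were nearly as low, at 595, 563 and 574 (-2.25 ± 0.05, adjusted p = 2.92e-22). It also fell under shARID1A/B.4.2, to 802, 837 and 925 (-1.68 ± 0.05), under shARID1A/B.2.3, to 1204, 1135 and 1088 (-1.26 ± 0.05), and under shARID1A.4, to 1638, 1551 and 1689 (-0.75 ± 0.05). The exception was shARID1B.3, where it rose to 3175, 3289 and 3073 (0.21 ± 0.05, adjusted p = 0.000353). No neighbours in the order of the 7 conditions overlapped, which also held for B4GALT5, B4GALNT1 and ST3GAL2. The share of all genes for which this holds was not counted.

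B4GALT5, the other lactosylceramide synthase and the more abundant transcript, moved over a narrower range. It was 5779.9, 5716 and 5973 in control and highest under shARID1A/B.2.3, at 7608, 7749 and 7804 (0.41 ± 0.03, adjusted p = 2.65e-12). The lowest values were 3195, 3387 and 3401 under shARID1B.3 (-0.81 ± 0.03, adjusted p = 5.9e-18), the 1 condition in which B4GALT6 was above control. It was also lower under shARID1A/B.4.2, at 3873, 4062 and 3891 (-0.56 ± 0.03), under shARID1A.2, at 4722, 4853 and 4897 (-0.27 ± 0.03), and under shARID1B.2, at 5279.9, 4978 and 5123 (-0.18 ± 0.03). That last call was lost when values were scaled to total reads (log2 change -0.05, adjusted p = 0.113). Under shARID1A.4 it was 6202, 6015 and 6008, just above the control libraries, and was not called (0.06 ± 0.03, limma adjusted p = 0.0546). On the recovered reads, edgeR (0.08, adjusted p = 0.0109) and DESeq2 (0.06, adjusted p = 0.0452) called it. So did limma without control library 3 (adjusted p = 0.0268), scaled to total reads (0.00648) or with edgeR's TMM scaling (0.0129). Limma also called it with at least 10 reads in every library (adjusted p = 0.0465) and with only the libraries compared (0.0414). Other pseudocounts, no filter and a replicate block did not give a call.

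ST3GAL5, which makes GM3, the precursor of all further gangliosides here, rose in 2 conditions and fell in 4. It was 417, 421 and 449 in control. The highest values were 846, 853 and 799 under shARID1A/B.2.3, 194% of the control mean (0.96 ± 0.06, limma adjusted p = 5.51e-13), followed by 664, 662 and 658 under shARID1A.4 (0.62 ± 0.06, adjusted p = 1.5e-09). It was lowest under shARID1A.2, at 209, 247 and 220.5 (-0.93 ± 0.06), and shARID1B.2, at 229, 242 and 232 (-0.87 ± 0.06), and these 2 conditions overlapped. Smaller falls were measured under shARID1A/B.4.2, to 306, 286 and 273 (-0.57 ± 0.06), and shARID1B.3, to 353, 366 and 381 (-0.23 ± 0.06, adjusted p = 0.00244).

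ST8SIA1, GD3 synthase, had low values with a wider spread. It was 43.5, 60.4 and 66.8 in control, and these were 37, 54 and 65 reads. The highest libraries were those labelled shARID1A/B.4.2, at 115, 81.1 and 92.7 (0.76 ± 0.18, limma adjusted p = 0.000801), and shARID1A.2, at 97.2, 105 and 74.6 (0.70 ± 0.18, adjusted p = 0.00153), which overlapped each other and lay above all control libraries. Lower than every control library were shARID1A/B.2.3, at 38.5, 25.0 and 29.2 (-0.86 ± 0.18, adjusted p = 0.000218), and shARID1A.4, at 35.9, 30.9 and 37.9 (-0.67 ± 0.18, adjusted p = 0.00222), which overlapped each other too. For shARID1B.2 the values were 75.3, 75.2 and 71.1, above the control libraries but not called (0.39 ± 0.18, adjusted p = 0.0646). That comparison was called without control library 3 (log2 change 0.52, adjusted p = 0.0296) and with scaling to total reads (0.53, adjusted p = 0.0147). Under shARID1B.3 it was 56.7, 47.5 and 54.4, within the control range (-0.09 ± 0.18, adjusted p = 0.708).

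B4GALNT1, the synthase of GD2 itself, followed the order of ST3GAL5 except that its lowest conditions did not overlap. It was 984, 1052 and 1081 in control. Values of 1748, 1758 and 1727 under shARID1A/B.2.3 (0.75 ± 0.05, limma adjusted p = 3.49e-13) and 1499, 1475 and 1459 under shARID1A.4 (0.51 ± 0.05, adjusted p = 4.66e-10) were above control. The libraries labelled shARID1A.2 were lowest, at 398, 409 and 409.8, or 39.0% of the control mean (-1.35 ± 0.05, adjusted p = 1.53e-18). Next came shARID1B.2, at 489, 416 and 465 (-1.19 ± 0.05, adjusted p = 5.76e-17). Smaller falls were found under shARID1A/B.4.2, to 815, 844 and 838 (-0.32 ± 0.05), and shARID1B.3, to 884, 927 and 915 (-0.19 ± 0.05). SLC26A10, the overlapping gene, had control values of 105, 105 and 99.6 and rose under shARID1A.2 to 212, 163 and 183 (0.83 ± 0.11), the opposite direction to B4GALNT1 in that condition, and likewise rose under shARID1B.2 (0.48 ± 0.11) and shARID1A/B.4.2 (0.26 ± 0.11). Both genes rose under shARID1A.4 and shARID1A/B.2.3, SLC26A10 by 0.60 ± 0.11 and 0.46 ± 0.11.

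Both B3GALT4 and ST3GAL2 act on GD2 or beyond it. In the 3 conditions with the lowest ST3GAL5 and B4GALNT1, B3GALT4 values lay above control and ST3GAL2 values below it. B3GALT4, which carries GD2 on to GD1b, was 16.4, 11.2 and 8.22 in control and rose to 50.7, 58.7 and 52.3 under shARID1A.2 (2.13 ± 0.29, limma adjusted p = 4.03e-07), 43.7, 47.9 and 48.7 under shARID1A/B.4.2 (1.93 ± 0.29, adjusted p = 2.12e-06) and 24.5, 24.3 and 21.3 under shARID1B.2 (0.96 ± 0.29, adjusted p = 0.00554). These 3 conditions did not overlap with control. They are also the conditions through which B3GALT4 passed the filter on low reads, so its rise there is a description and not support. The summed reads of 3 libraries were 165, 162 and 73 against 32 in control, ratios of 4.56 (95% exact interval 3.11 to 6.89), 3.98 (2.71 to 6.01) and 1.98 (1.29 to 3.1) after scaling, with intervals that cover counting error only. It fell under shARID1A.4 to 5.83, 7.13 and 2.99 (-1.05 ± 0.29, adjusted p = 0.00234; 15 reads in all). It was 8.96, 11.4 and 12.1 under shARID1B.3 and 15.2, 9.38 and 7.78 under shARID1A/B.2.3, which overlapped the control and were not called. WDR46, which overlaps it on the other strand, had 2773 in control and changed by -0.51 ± 0.03 under shARID1A.2, the other way.

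ST3GAL2, the sialyltransferase of the late steps, was 3169, 3174 and 3197 in control, higher than in any other condition. It fell to 1532, 1484 and 1549 under shARID1A.2 (-1.06 ± 0.03, limma adjusted p = 3.68e-19). Intermediate values were measured under shARID1A/B.4.2, at 1979, 2168 and 2073 (-0.62 ± 0.03), shARID1B.2, at 2218, 2196 and 2322 (-0.50 ± 0.03), shARID1A.4, at 2397, 2345 and 2370.2 (-0.42 ± 0.03), and shARID1B.3, at 2711, 2485 and 2505 (-0.31 ± 0.03), all 4 called. Under shARID1A/B.2.3 it was 3141, 3060.4 and 3134 and was not called (-0.03 ± 0.03, adjusted p = 0.424).

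ST8SIA5, which extends the most sialylated gangliosides, was close to the limit of detection. Control libraries held 3, 1 and 2 reads (scaled 3.52, 1.12 and 2.05), and those labelled shARID1A.2 held 14, 15 and 13 (scaled 11.6, 15.4 and 14.5; log2 change 2.26 ± 0.51, limma adjusted p = 0.000345). The scaled ratio of summed reads was 6.19 with a 95% exact interval of 2.62 to 17.8. ST8SIA5 passed the filter on low reads through the libraries labelled shARID1A.2, so this rise is a description and not support. The libraries labelled shARID1A/B.4.2 had 5.47, 9.27 and 4.68, a ratio of 3.01 (1.19 to 9.04), and the call (1.23 ± 0.51, adjusted p = 0.0359) was lost in DESeq2 (adjusted p = 0.0835). It was also lost without control library 2 or 3 (limma adjusted p = 0.138 and 0.0677) and without library 1 or 2 labelled shARID1A/B.4.2 (0.0536 and 0.141). Those labelled shARID1B.2 had 3.50, 5.79 and 7.11 (1.03 ± 0.51, adjusted p = 0.0825), and the other 3 conditions held 4 to 6 reads in all, where a difference from the 6 control reads was not detectable at this depth.

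The ratio of 2 transcripts within a library does not depend on the size factor. B4GALNT1 reads per ST8SIA1 read, which sets GD2 synthase beside GD3 synthase, were 18.8 ± 3.43 (SD, n = 3) in control, 17.3 ± 2.01 under shARID1B.3, 42.6 ± 4.67 under shARID1A.4 and 58.3 ± 12.5 under shARID1A/B.2.3. The ratio was 4.49 ± 0.872 under shARID1A.2, 6.19 ± 0.575 under shARID1B.2 and 8.85 ± 1.66 under shARID1A/B.4.2, below every control library in each case. ST3GAL5 reads per ST8SIA1 read fell into the same 3 levels, 7.76 ± 1.59 in control, 27.8 ± 6.08 under shARID1A/B.2.3 and 2.49 ± 0.417 under shARID1A.2. For the lactosylceramide synthases, B4GALT6 reads per B4GALT5 read were 0.470 ± 0.0110 in control, 0.956 ± 0.0469 under shARID1B.3, and 0.108 ± 0.00357 and 0.113 ± 0.000550 under shARID1A.2 and shARID1B.2. With 3 libraries against 3, an exact permutation test cannot give a p-value below 0.1, so the ratios are given without a test.

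**Figure D3:**
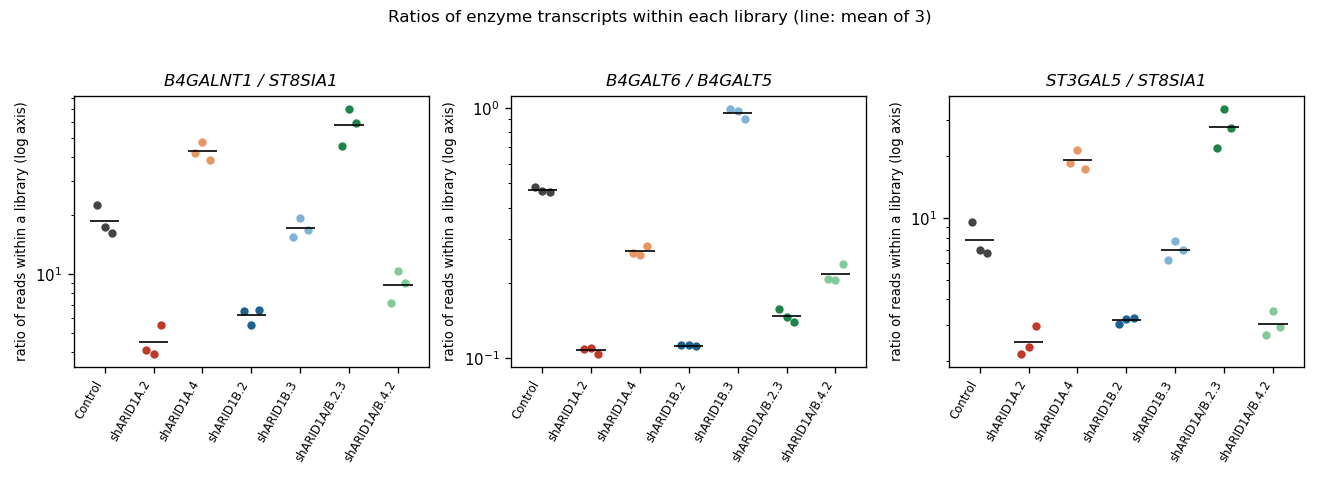
Ratios of reads of 2 enzyme genes within each library (y axes, log scale) by labelled condition (x axis), with points for libraries and a line for the mean of 3. B4GALNT1 over ST8SIA1 is above the control libraries under shARID1A.4 and shARID1A/B.2.3 and below them under shARID1A.2, shARID1B.2 and shARID1A/B.4.2, and B4GALT6 over B4GALT5 is above control under shARID1B.3 alone.

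The study used different shRNAs under each label, and the direct comparison of the conditions that share a label asked whether they gave the same enzyme levels. They did not. Of the 9 genes, shARID1A.4 against shARID1A.2 had 3 lower and 6 higher (38.4% and 37.3% of all genes), with 6 of the changes over 1 on the log2 scale (23.9%). For shARID1B.3 against shARID1B.2, 4 were lower and 5 higher (33% and 33%), with 4 over 1 (13.7%), and for shARID1A/B.4.2 against shARID1A/B.2.3, 5 were lower and 4 higher (37.1% and 37.8%), with 5 over 1 (22.3%). B3GALT4 and ST8SIA5 are in all of these counts, also in those over 1. Both passed the filter through conditions in which they were high, so their calls do not support the answer. Both conditions labelled shARID1A had ARID1A and ARID1B low, and still B4GALNT1 differed by 1.86 ± 0.05, ST3GAL5 by 1.55 ± 0.06, B4GALT6 by 1.64 ± 0.05 and ST8SIA1 by -1.37 ± 0.18 (log2, SE, shARID1A.4 minus shARID1A.2), with limma adjusted p-values of 2.2e-21, 2.14e-17, 3.9e-20 and 3.47e-07. ARID1B was itself higher under shARID1A.4 than under shARID1A.2, by 0.47 ± 0.02, and the part of this difference in the enzyme levels was not tested. Under the label shARID1B (shARID1B.3 minus shARID1B.2), B4GALT6 differed by 2.46 ± 0.05 and UGCG by 1.49 ± 0.05, with ARID1A apart by 0.37 ± 0.03. Under the label shARID1A/B (shARID1A/B.4.2 minus shARID1A/B.2.3), ST8SIA1 differed by 1.61 ± 0.18, ST3GAL5 by -1.53 ± 0.06 and B4GALNT1 by -1.07 ± 0.05, with ARID1B apart by -0.45 ± 0.02. The least secure of these calls were ST8SIA1 and ST8SIA5 under shARID1B (-0.48 ± 0.18, adjusted p = 0.0258, and -1.19 ± 0.51, adjusted p = 0.045). ST8SIA1 was not called without library 1 or 2 labelled shARID1B.2 (adjusted p = 0.0603 and 0.0595) or library 2 labelled shARID1B.3 (0.0941), and ST8SIA5 was not called without library 2 or 3 labelled shARID1B.2 (0.0976 and 0.14) or library 1 or 2 labelled shARID1B.3 (0.151 and 0.0726). UGCG under the label shARID1A (0.25 ± 0.05) lost its call with scaling to total reads (0.10, adjusted p = 0.0698). An effect of the shRNA and an effect of how far its target fell cannot be told apart in this design.

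**Figure D4:**
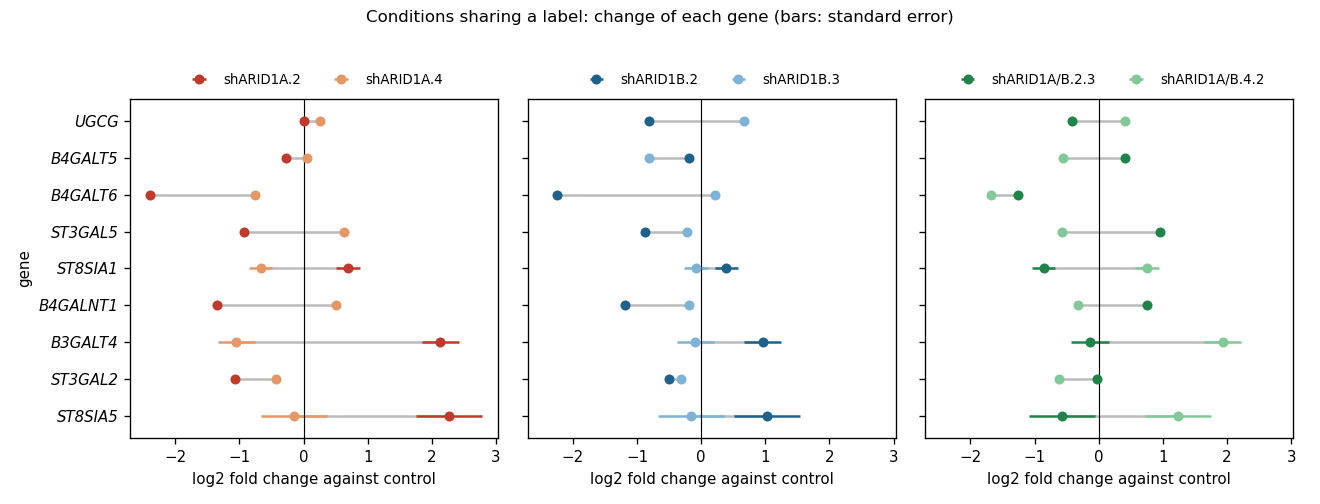
Log2 fold change against control (x axis) of each enzyme gene (y axis) for the 2 conditions that share a label (3 panels), with points for the estimate and bars for its standard error. The grey line joins the 2 conditions, and it crosses 0 with both ends called for 4 genes under shARID1A (17.1% of all genes), 2 under shARID1B (14.5%) and 5 under shARID1A/B (18.5%), B3GALT4 being 1 of the 4.

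MYCN, the amplified oncogene of this line, was highest in the 2 conditions in which ST3GAL5 and B4GALNT1 were highest. It was 120355, 123481 and 124192 in control, 416868, 426869.8 and 410526 under shARID1A.4 (1.77 ± 0.03) and 218173, 216229 and 221301 under shARID1A/B.2.3 (0.83 ± 0.03). It was below control under shARID1A.2 (94497, 90242 and 95144), shARID1B.2 (80175, 77312 and 80529.6) and shARID1A/B.4.2 (84499, 86206 and 84726), and above it under shARID1B.3 (165689, 148109 and 158121), where both enzymes were slightly lower. DBH, which makes noradrenaline, was likewise 476, 591 and 519.7 in control, 872, 913 and 823 under shARID1A.4 and 1189.8, 1078 and 1126 under shARID1A/B.2.3, and 107, 123 and 111 under shARID1A.2. Over the 11 adrenergic markers, all tested, 5 to 8 were lower and 2 to 6 higher over the 6 comparisons, with list medians from -0.71 to 0.12. Their summed values ran from 182100 to 186800 in control, 467400 to 484700 under shARID1A.4, 277400 to 283300 under shARID1A/B.2.3 and 207900 to 227000 under shARID1B.3. The sums were 128600 to 135200 under shARID1A.2, 127200 to 132500 under shARID1B.2 and 128500 to 132100 under shARID1A/B.4.2, most of each being MYCN. ISL1, an adrenergic regulator named for its large mean change over the 6 comparisons, ran from -1.23 under shARID1A.2 to -0.34 under shARID1B.3. It was lower in all 6, a run that this choice favours. The part of these markers in the enzyme levels was not tested.

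Markers of other states and cell types moved as well. Of 11 mesenchymal markers 9 were tested, of which 5 to 8 were lower and 0 to 3 higher over the 6 comparisons, with list medians from -0.92 to -0.19. Their sums were 65690 to 68270 in control, 74580 to 76620 under shARID1A.2, 65550 to 68950 under shARID1B.2, 55280 to 63600 under shARID1B.3 and 56660 to 63880 under shARID1A/B.4.2. The sums were 41420 to 41880 under shARID1A.4 and 40540 to 40930 under shARID1A/B.2.3, the conditions in which ST3GAL5 and B4GALNT1 were highest. Most of each sum was VIM, an intermediate filament protein, with means of 54220 in control and 34270 and 31530 in these 2 conditions. The list did not move as one there, with 6 of the 9 tested lower and 3 higher in each. YAP1, the Hippo pathway effector, changed by -3.13 ± 0.10 and -2.11 ± 0.10, and TWIST1 by -0.96 ± 0.05 and -1.29 ± 0.05. The 3 higher ones were FOSL1, with means of 140.8 in control and 178.1 and 266.9 in these conditions, FOSL2, with 1157, 1455 and 1731, and CD44, with 472.7, 627.4 and 589.4. All 7 fibroblast markers were tested, 4 to 7 of them lower and 0 to 2 higher (medians -1.48 to -0.22), with sums of 43150 to 43640 in control and between 14580 (shARID1A.4) and 40380 (shARID1B.2) elsewhere. COL1A1, a collagen chain, changed by -3.24 ± 0.05 under shARID1A.2 and -3.97 ± 0.05 under shARID1A/B.4.2, and LUM by -1.38 ± 0.04 and -0.50 ± 0.04. Of 6 Schwann cell markers 4 were tested, 0 to 2 lower and 1 to 2 higher (medians -0.64 to 0.51), with sums of 137.4 to 161.2 in control and up to 608.7 under shARID1A.2, where S100B had a mean of 56.6, SOX10 was at 0 and FOXD3 was at 0.34. The part of these lists in the enzyme levels was not tested.

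The genes around the GD2 pathway were counted in the same fit, in lists written with earlier results of these data known. Of each list, the 2 genes with the largest mean change over the 6 comparisons with control are named. That rule favours genes that move 1 way in all 6, so such a run is not support. Of all genes, 32% to 38.2% were lower and 31.6% to 37.9% higher over the 6 comparisons, and the counts of these lists and of the marker lists stand beside that share; nothing particular to a list is read from them. Of 15 ceramide synthesis genes 14 were tested, and 3 to 8 were lower and 3 to 8 higher over the 6 comparisons, with list medians from -0.24 to 0.27 beside the all-gene medians of 0.01 to 0.02 given above. CERS6, a ceramide synthase, changed by -1.44 ± 0.03 under shARID1A.2 and -1.32 ± 0.03 under shARID1A/B.4.2, and was slightly higher under shARID1B.3 (0.14 ± 0.03). CERS1, the neuronal ceramide synthase, was higher in all 6 comparisons, by 0.44 to 1.23. Of 10 genes of competing branches 7 were tested, with 2 to 5 lower and 0 to 2 higher (medians -0.70 to -0.09). B3GNT5, which diverts lactosylceramide to lacto-series glycolipids, was lower in all 6, from -1.38 under shARID1B.2 to -0.15 under shARID1A/B.4.2. B3GALNT1, the globoside synthase, was called lower in 5, down to -0.94 under shARID1B.3, with shARID1A/B.2.3 at -0.02 (adjusted p = 0.776). SGMS1, which uses ceramide for sphingomyelin, ran from -0.95 ± 0.06 under shARID1B.2 to 0.52 ± 0.06 under shARID1A.4. UGT8 and A4GALT, which open the galactosylceramide and globo-series branches, were too low to be tested, with control means of 2.92 and 0.75.

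Among 16 other sialyltransferases, 14 tested, 4 to 8 were lower and 5 to 8 higher (medians -0.50 to 0.33). ST3GAL1 changed by -2.59 ± 0.05 under shARID1A.2 and -2.16 ± 0.05 under shARID1A/B.4.2 but by 0.49 ± 0.05 under shARID1A/B.2.3, and ST3GAL4 was lower in all 6, from -1.11 to -0.42. Of 15 sugar donor genes, all tested, 4 to 8 were lower and 3 to 7 higher (medians -0.18 to 0.06). UGDH, which oxidises UDP-glucose, changed by -2.58 ± 0.04 under shARID1A.2, -2.17 ± 0.04 under shARID1B.2 and 0.00 ± 0.04 under shARID1B.3. Its change was -1.46 ± 0.04 under shARID1A/B.2.3, -1.17 ± 0.04 under shARID1A/B.4.2 and -1.04 ± 0.04 under shARID1A.4. Of 4 glycolipid transfer genes 3 were tested, with 1 to 2 lower and 1 to 2 higher (medians -1.49 to 0.47). PLEKHA8, the FAPP2 carrier of glucosylceramide, was lower in all 6, from -1.49 to -0.48, and CPTP, a ceramide-1-phosphate carrier, was higher in all 6, from 0.94 to 1.54.

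Of 18 genes of ganglioside breakdown 16 were tested, with 3 to 7 lower and 6 to 8 higher (medians -0.08 to 0.14). GM2A, the activator protein that presents GM2 to lysosomal hexosaminidase, had a control mean of 492.8 and was higher in all 6 comparisons, by 1.91 ± 0.05 under shARID1A.2, 1.33 ± 0.05 under shARID1A/B.4.2, 1.21 ± 0.05 under shARID1A.4, 1.12 ± 0.05 under shARID1B.2, 0.68 ± 0.05 under shARID1A/B.2.3 and 0.57 ± 0.05 under shARID1B.3. NEU1, the lysosomal sialidase, had a control mean of 814.2 and was also higher in all 6, by 0.53 to 1.32. All 12 of these values were called, but the 6 comparisons share their control libraries. Both genes were also named for their large mean change over these 6 comparisons, so a shared direction was favoured by the choice. NEU3, the plasma membrane sialidase that acts on gangliosides, changed by -0.87 ± 0.04 under shARID1B.2 and by -0.24 to 0.10 in the other conditions.

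Over 13675 genes with a mean of at least 50, the 3 whose log2 values ran most like those of B4GALNT1 across the 21 libraries were AEN (Pearson r = 0.989), DUSP4 (0.985) and PCMT1 (0.985). Those most like ST8SIA1 were C16orf86 (0.948), GSTZ1 (0.943) and ZNF641 (0.943). DUSP4, a phosphatase of MAP kinases, changed by -1.01 under shARID1A.2 and 0.73 under shARID1A/B.2.3, where B4GALNT1 changed by -1.35 and 0.75. GSTZ1, an enzyme of tyrosine breakdown, changed by 0.96 and -0.81 in these conditions, where ST8SIA1 changed by 0.70 and -0.86. The 21 points are 7 conditions of 3 libraries and share their size factors, so the correlations are a description.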

How the data were processed

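RNA-seq libraries (TruSeq stranded mRNA, Illumina) were made from SK-N-BE(2) cells 72 h after transduction, 3 per condition. The submitters' processing notes name STAR 2.5.3a, RSEM 1.3.0, DESeq2 1.26.0 and GRCh38. The deposited signal values are the authors' gene counts divided by 1 size factor per library (0.8409 to 1.2945): multiplied back, 100% of values were whole reads within 0.01 read. The authors' tables of fold changes and p-values were not used. Samples were grouped by label. The main test was limma 3.58.1 (trend) in R 4.3.3 on log2(value + 1) in all 7 conditions, after edgeR's filter on recovered reads (18584 genes), with Benjamini-Hochberg adjustment per comparison. The pseudocount understates fold changes of low genes. A fold change and its SE are on this scale throughout.

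Alternatives were edgeR 4.0.16 and DESeq2 1.42.0 on recovered reads, other pseudocounts, filters and scalings, only the libraries compared, a replicate block, a size rule and leaving out each library. Scripts were tested on simulated data. Exact intervals used scipy 1.17.1 and cover counting error only, as do depth limits. The chi-square per degree of freedom between libraries of a condition was 1.55 to 4.26. The 9 genes and the lists were chosen with earlier results of these data known. Beyond them, the text names the 2 genes of each list with the largest mean change over the comparisons with control, which favours genes that move 1 way in all of them. It also names set branch points and sialidases, and the 3 genes most correlated with ST8SIA1 and with B4GALNT1. A gene that this rule selects is not reported here. Markers and overlapping genes were named after their values were seen.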

Additional observations from a re-analysis of the deposited data

Results flagged for a closer look

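For 11 of 27 pairs, 1 gene moved in opposite directions against control in the 2 conditions that share a label, both called, and the difference between the conditions was called as well. The same held for 17.1% of all 18584 genes under the label shARID1A, 14.5% under shARID1B and 18.5% under shARID1A/B, and B3GALT4 is among the 11 although it passed the filter on low reads through the conditions in which it was high. Values are log2 differences from limma. Under the label shARID1A (shARID1A.4 minus shARID1A.2) these were ST3GAL5 at 1.55, ST8SIA1 at -1.37, B4GALNT1 at 1.86 and B3GALT4 at -3.18. Under the label shARID1B (shARID1B.3 minus shARID1B.2) they were UGCG at 1.49 and B4GALT6 at 2.46. Under the label shARID1A/B (shARID1A/B.4.2 minus shARID1A/B.2.3) they were UGCG at 0.82, B4GALT5 at -0.97, ST3GAL5 at -1.53, ST8SIA1 at 1.61 and B4GALNT1 at -1.07. B4GALT6 was lower than control in both conditions of the labels shARID1A and shARID1A/B, and ST3GAL2 was lower in 5 of the 6 conditions.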

How the results depend on the processing

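Of 1278 log2 changes of the 9 genes recomputed under an alternative, 1232 kept their direction and their side of the threshold, 21 lost a call, 11 gained one and 14 changed sign, 13 of the 14 on leaving out 1 library. Requiring a log2 change over 1 in size left 5 of the 9 genes called for shARID1A.2, 1 for shARID1A.4, 2 for shARID1B.2, 0 for shARID1B.3, 1 for shARID1A/B.2.3 and 3 for shARID1A/B.4.2. In the direct comparisons it left 6 for shARID1A.4 against shARID1A.2, 4 for shARID1B.3 against shARID1B.2 and 5 for shARID1A/B.4.2 against shARID1A/B.2.3. B3GALT4 was the 1 left for shARID1A.4. B3GALT4 and ST8SIA5 were among those left for shARID1A.2, for shARID1A/B.4.2 and for every direct comparison. The sign changes were all in values not called. Scaled to total reads, ST3GAL2 under shARID1A/B.2.3 was 0.003, and without 1 library each UGCG under shARID1A.2 ran from -0.034 to 0.031, ST8SIA5 under shARID1A.4 from -0.56 to 0.13 and under shARID1B.3 from -0.43 to 0.11, ST8SIA1 under shARID1B.3 from -0.26 to 0.04, and B3GALT4 from -0.31 to 0.15 under shARID1B.3 and from -0.39 to 0.10 under shARID1A/B.2.3. Scaling to total reads moved the median of all genes by 0.17, 0.14 and 0.18 under shARID1A.2, shARID1B.2 and shARID1A/B.4.2, which bears on small changes. Replicate numbers did not pair the libraries: 0 of 18 same-number correlations passed 0.1, and 6 of 21 libraries correlated best with their own number. With a replicate block, 80 of 81 values kept their call, and ST8SIA5 in shARID1B.3 against shARID1B.2 lost it (-1.19, adjusted p = 0.0532 in limma). Depth limits ST8SIA5 and B3GALT4 most, at 6 and 32 control reads.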

Other observations

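GLTP, a cytosolic glycolipid transfer protein, was picked out after its values were seen. Its mean scaled reads were 650 in control, 138.7 under shARID1A.2 and 85.4 under shARID1A/B.4.2, with 668.1 under shARID1A.4, 803.6 under shARID1B.2, 513.9 under shARID1B.3 and 898.7 under shARID1A/B.2.3.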
